A study of Mus musculus with 126 samples.

Results

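Nuclear receptors are transcription factors that many small lipophilic ligands switch on or off, and in the gut they tie gene expression to diet, bile and xenobiotics. Most of those considered here bind DNA as a heterodimer with a retinoid X receptor, whereas the HNF4 proteins bind as homodimers and LRH-1 as a monomer. In the intestine HNF4 factors maintain the enterocyte programme of brush border and lipid handling, and PPARα activates the genes of fatty acid oxidation.

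The metabolic nuclear receptors and HNF4 factors comprised 9 genes, taken by gene symbol with earlier results of these data known. Ppara encodes the fatty acid receptor PPARα and Pparg its relative PPARγ. Nr1h4 encodes the bile acid receptor FXR, Nr1i2 the xenobiotic receptor PXR, and Vdr the vitamin D receptor, which also binds the secondary bile acid lithocholic acid. Rxra encodes RXRα, the shared partner of these receptors. Hnf4a and Hnf4g encode the paralogous HNF4 factors, and Nr5a2 encodes LRH-1, which acts in crypt renewal and local steroid synthesis. On mm10 (GENCODE vM21) the genes lie at chr15:85734983-85802819 (Ppara), chr6:115360951-115490399 (Pparg), chr10:89454234-89533585 (Nr1h4), chr16:38248323-38294824 (Nr1i2), chr15:97854425-97910630 (Vdr), chr2:27676440-27762957 (Rxra), chr2:163506808-163572910 (Hnf4a), chr3:3508030-3658052 (Hnf4g) and chr1:136842571-136960448 (Nr5a2). All 9 were found among the 24883 rows of each table, and all 9 were among the 11377 rows that passed the filter on low values, which asked for a condition mean of 1 rescaled FPKM or more somewhere among the conditions.

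Poly(A) RNA from mouse colon was sequenced at 6 zeitgeber times (ZT, hours after lights on: ZT0, 4, 8, 12, 16 and 20), with 3 libraries at each time in each of 7 conditions, 126 libraries in all. In the genotype experiment, Bmal1 knock out mice (a gut-specific deletion of the core clock activator) and MR knock out mice (lacking the mineralocorticoid receptor, the aldosterone receptor) were 8 to 12 weeks old and ate normal chow ad libitum, and they were set against wild type mice. In the feeding experiment, male C57BL/6 mice aged 8 weeks ate a high salt or a low salt diet, offered either by day or by night, in 12 h of light and 12 h of dark. These groups were high salt day fed, high salt night fed, low salt day fed and low salt night fed. The sources used here give neither the Cre driver, nor the cells in which Bmal1 or MR was deleted, nor the age and diet of the wild type mice, nor the hours and salt content of the meals. The labels do not tie libraries to animals, so p-values measure the spread between libraries, which may be technical.

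The labelled genotypes were checked first. Nr3c2, which encodes MR, averaged 3.05 ± 0.988 FPKM in MR knock out and 15.1 ± 4.90 in wild type colons (SD, n = 18 libraries each), without overlap between these conditions; it was also low in Bmal1 knock out colons, at 6.36 ± 3.44. Arntl, which encodes BMAL1, averaged 4.41 ± 0.992 FPKM in Bmal1 knock out and 9.32 ± 6.29 in wild type colons, and its 24 h amplitude was 0.25 ± 0.09 in Bmal1 knock out and 1.43 ± 0.09 in wild type (log2, SE). All 9 markers of colon epithelium were measured, while 0 of 3 endothelial, 0 of 5 enteric neuron and glia, 1 of 6 adipocyte, 1 of 6 smooth muscle, 1 of 5 fibroblast and 3 of 6 immune markers passed the filter. Fewer cells of a type and less RNA per cell cannot be told apart in these bulk samples.

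Several libraries stood apart. The scale factor that puts libraries on a common footing was under 0.6 in 14 libraries: 9 of Bmal1 knock out, among them all those at ZT12 and ZT16, and 5 of high salt night fed, 3 at ZT8 and 2 at ZT12. A length score, the slope of a library's log2 deviation on log2 transcript length, averaged -0.0946 ± 0.136 in Bmal1 knock out colons, 0.0095 ± 0.126 in MR knock out colons and 0.172 ± 0.105 in wild type (SD, n = 18 each). In the high salt day fed group the time labels and the clock genes went apart: a 24 h cosine held a median of 43% of the variance between times over 16 clock genes, against 64.9% in Bmal1 knock out and 90.4% to 95.7% in the other 5 conditions. Mean Dbp, a clock output gene, alternated there over 0.707, 11.8, 2.42, 29.5, 0.782 and 8.73 FPKM at ZT0 to ZT20. The clock genes of high salt day fed ZT0 and ZT12 lay nearest to low salt night fed ZT0 and ZT12, with a root mean square log2 distance of 0.34 each, against 1.65 and 1.88 to low salt day fed libraries of the same time. Labels were kept as given. The counts of receptors and of target genes called in comparisons with this group are also given without its ZT0 and ZT12 libraries, a choice made after the data were seen, while levels, peak times and profiles include them.

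Ppara and Nr1h4 were rhythmic in all 4 feeding groups with different peak times, so the sequences around their start sites are shown. They span 250 bases before and 50 bases after the RefSeq start (GRCm38.p6, 5′ to 3′ on the gene's strand), and capitals mark GC boxes (GGGCGG, both strands searched). The Ppara window is chr15:85735526-85735825 on the plus strand, with 74.7% G and C and GC boxes starting at -216 and -101. The Nr1h4 window is chr10:89506609-89506908 on the minus strand, with 45.7% G and C and no capital letters.
Ppara: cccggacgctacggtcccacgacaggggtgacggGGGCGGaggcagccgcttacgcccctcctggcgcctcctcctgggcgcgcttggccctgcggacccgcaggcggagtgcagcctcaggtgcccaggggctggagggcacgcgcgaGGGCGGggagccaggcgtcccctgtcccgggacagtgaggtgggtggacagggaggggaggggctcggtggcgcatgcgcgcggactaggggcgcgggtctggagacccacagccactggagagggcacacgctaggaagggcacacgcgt
Nr1h4: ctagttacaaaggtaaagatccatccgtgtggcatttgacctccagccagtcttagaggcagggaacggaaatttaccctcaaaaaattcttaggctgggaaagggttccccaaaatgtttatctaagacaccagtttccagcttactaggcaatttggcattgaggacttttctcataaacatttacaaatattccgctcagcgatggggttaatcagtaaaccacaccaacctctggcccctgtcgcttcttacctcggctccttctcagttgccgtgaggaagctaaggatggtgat

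RefSeq windows were available here for 8 of the 9 genes, 13 windows in all; no window of Hnf4g was used. On either strand, none of the 13 held the clock E-box CACGTG, which 7.15% of all 32851 windows hold, or the D-box TTATGTAA or TTACGTAA (1.06%). None held the ROR element core TAGGTCA (2.61%), the DR1 direct repeat bound by PPAR and HNF4 dimers (0.0396%) or the HNF4 element CAAAGTCCA (0.475%). GC boxes, present in 35.7% of all windows, were in windows of Ppara, Pparg, Vdr, Rxra and Hnf4a. The CCAAT box (CCAAT, 37.4% of windows) was in windows of Pparg, Nr1i2, Hnf4a and Nr5a2. These matches are descriptions of the letters and not of binding.

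In every condition Hnf4a was the most abundant of the receptors and Vdr the next, on a scale per transcript length (rescaled FPKM). Hnf4a averaged 99.6 ± 18.8 FPKM in Bmal1 knock out colons, 139 ± 25.2 in MR knock out colons and 137 ± 15.6 in wild type colons (SD over 18 libraries, times included). On high salt it averaged 130 FPKM when mice were day fed and 113 when night fed, and on low salt 124 when day fed and 123 when night fed. Hnf4a exceeded Vdr in 18 of 18 libraries of every condition.

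Pparg, Nr1h4 and Nr1i2 formed a middle tier in which neighbours often could not be ordered. In wild type colons they averaged 32.5 ± 5.64, 29.9 ± 5.40 and 27.7 ± 2.89 FPKM. Pparg exceeded Nr1h4 there in 11 of 18 libraries, by 0.12 ± 0.18 (log2, SD), and Nr1h4 exceeded Nr1i2 in 13. Rxra followed at 17.3 ± 2.08 FPKM in wild type, below Nr1i2 in 18 of 18 wild type libraries.

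The lowest tier held Nr5a2, Hnf4g and Ppara, which had the widest relative spread of the 9 among wild type libraries. In wild type they averaged 9.80 ± 2.59, 7.73 ± 2.41 and 4.35 ± 1.33 FPKM, with coefficients of variation of 26.5%, 31.1% and 30.6%, against 11.4% for Hnf4a and 10.4% for Nr1i2. Hnf4a, with 137 FPKM in wild type, was thus far above its paralogue Hnf4g. In the feeding groups Ppara was lowest throughout, with means from 2.54 to 3.24 FPKM.

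**Figure D1:**
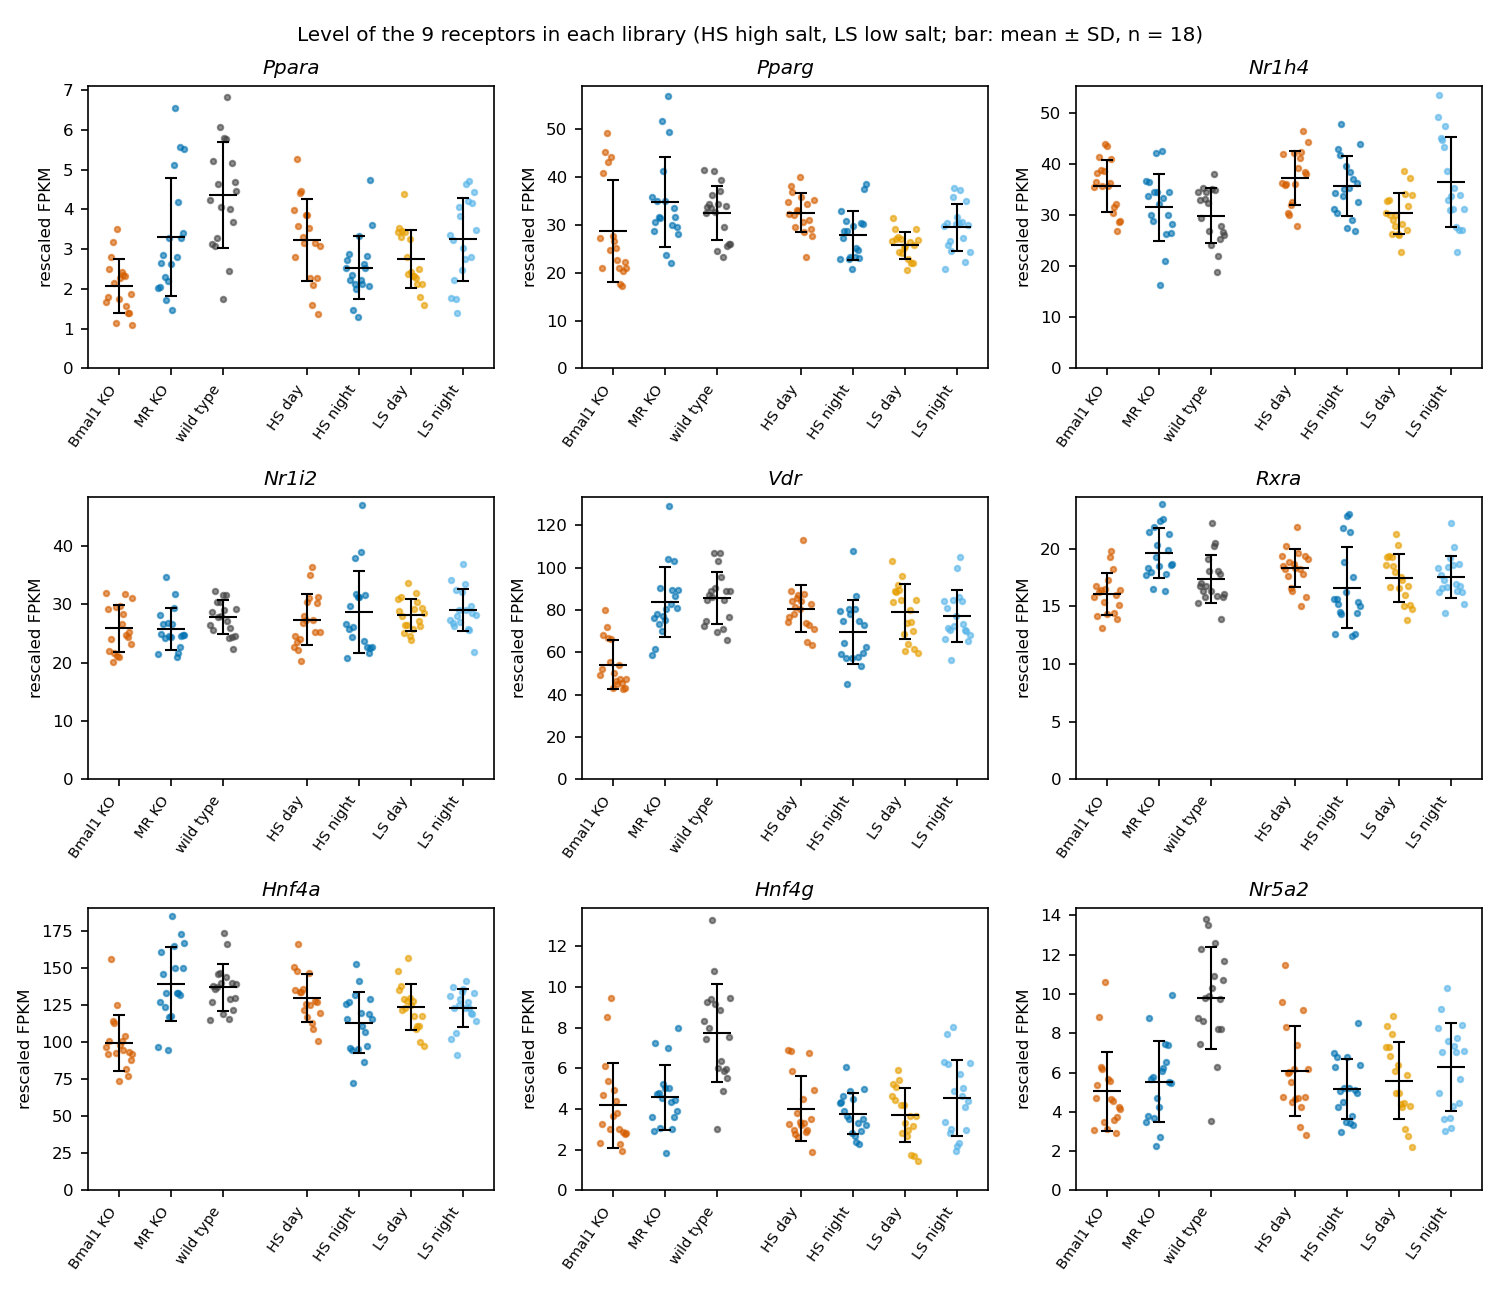
Rescaled FPKM of the 9 receptor genes in each of the 7 conditions, each panel on its own linear axis starting at 0; points are libraries and bars the mean ± SD of 18. Hnf4a averages 99.6 in Bmal1 knock out and 137 in wild type, on an axis far above that of Ppara, with 2.07 in Bmal1 knock out and 4.35 in wild type.

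Deletion of Bmal1 went with lower levels of most of these receptors. Of the 9 genes, 7 were lower and 1 was higher in Bmal1 knock out than in wild type colons (limma, Benjamini-Hochberg adjusted p under 0.05), where 49.2% of all tested genes were lower, 31.1% higher and 80.3% changed either way. The median difference was -0.47 over the 9 genes and -0.13 over all tested genes (log2). With a background this broad, the share changed is not particular to the receptors, and the sizes below say more than the count.

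Vdr, the vitamin D receptor, was lower throughout the day. In Bmal1 knock out its lowest, median and highest libraries had 42.6, 49.9 and 80.0 FPKM, against 66.0, 86.7 and 107 in wild type. At ZT12 the 3 Bmal1 knock out libraries had 50.4, 46.6 and 45.2 FPKM, against 103, 107 and 95.4 in wild type. The genotypes did not overlap at any of the 6 times, and the mean fell to 0.629 of wild type (log2 -0.67 ± 0.06 SE, adjusted p = 6.94e-12). It remained lower under every alternative tried, between -0.43 with the length score in the model and -1.56 on FPKM as deposited.

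Hnf4a fell to 0.722 of wild type (log2 -0.47 ± 0.06, adjusted p = 1.02e-08), and the genotypes did not overlap at 4 of 6 times. Its lowest, median and highest Bmal1 knock out libraries had 73.6, 95.6 and 156 FPKM, against 115, 138 and 174 in wild type. Most Bmal1 knock out values therefore lay under the wild type range.

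Of the weakly expressed receptors, Ppara, Hnf4g and Nr5a2 were close to 0.53 to 0.55 of wild type. Ppara had 1.09, 2.01 and 3.50 FPKM (lowest, median, highest) in Bmal1 knock out, against 1.74, 4.35 and 6.82 in wild type, a difference of -0.91 ± 0.14 (adjusted p = 2.31e-07). Hnf4g differed by -0.86 ± 0.15 (adjusted p = 2.1e-06) and Nr5a2 by -0.92 ± 0.15 (adjusted p = 7.61e-07). Each was lower at 6 of 6 times and free of overlap at 4. With the length score as a covariate these differences were -0.16 for Ppara, 0.08 for Hnf4g and 0.08 for Nr5a2, and none of the 3 was called, while Vdr and Hnf4a were still called lower, at -0.43 and -0.21.

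Pparg was slightly lower in Bmal1 knock out, with a log2 difference of -0.24 ± 0.09 (adjusted p = 0.0157), and Rxra differed by -0.11 ± 0.04 (adjusted p = 0.0198); neither call held with the length score added to the model or without the low-scale libraries. Nr1i2 did not pass the test, at -0.11 ± 0.05 (adjusted p = 0.0656). Nr1h4, the bile acid receptor, was the exception and rose. It had 26.9, 36.1 and 43.9 FPKM (lowest, median, highest) in Bmal1 knock out, against 18.8, 30.9 and 38.1 in wild type, a 1.20-fold higher level (log2 0.26 ± 0.07, adjusted p = 0.00088). It was higher at 6 of 6 times, was 0.26 but not called without the low-scale libraries, and was -0.62 on FPKM as deposited.

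**Figure D2:**
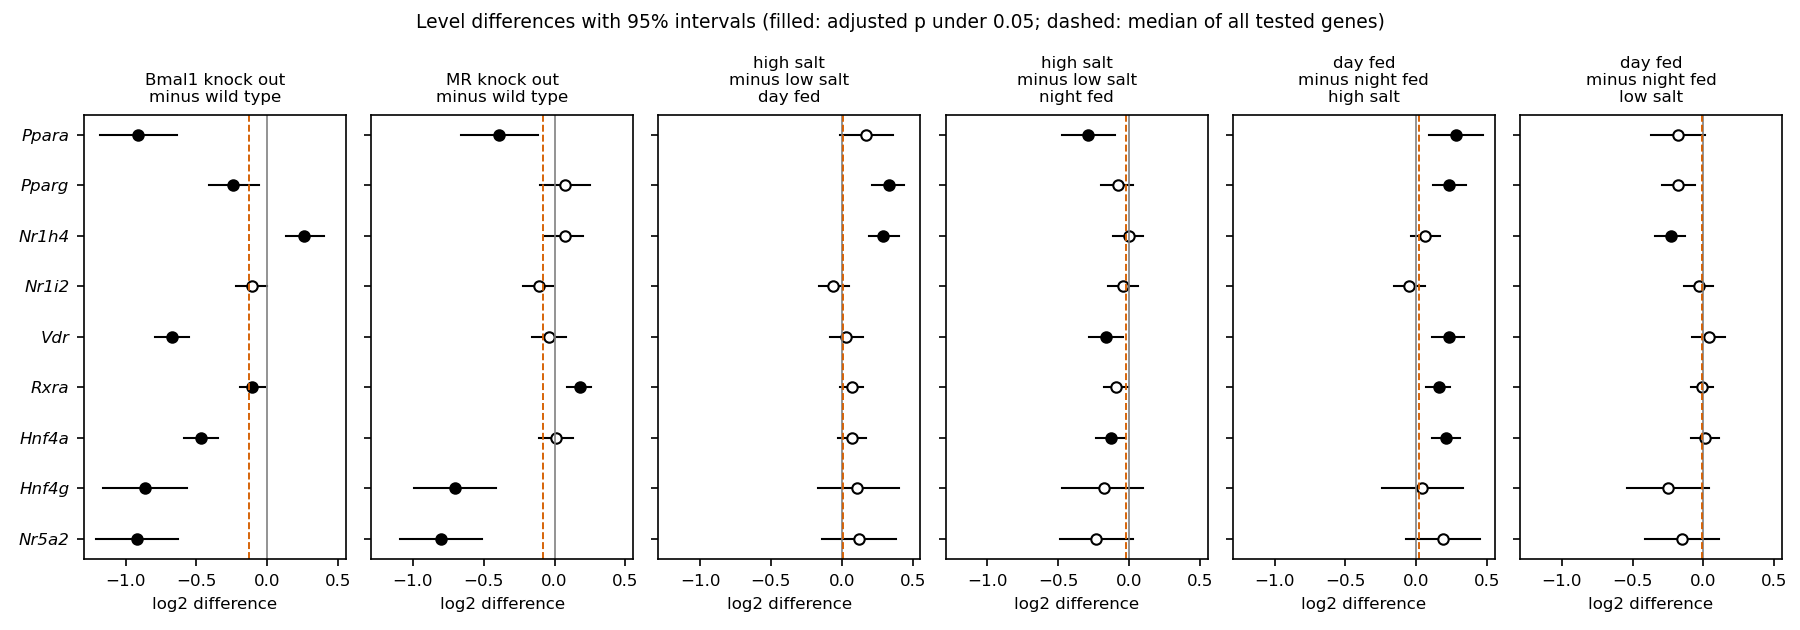
Log2 difference in level of each receptor gene in each comparison, averaged over the 6 times, with 95% intervals; filled points passed an adjusted p of 0.05 and the dashed line is the median of all tested genes. In Bmal1 knock out against wild type, 7 genes lie below 0 with filled points and Nr1h4 above it.

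In MR knock out colons the low-abundance receptors were again lower. Of the 9 genes, 3 were lower and 1 was higher in MR knock out than in wild type colons, where 66% of all tested genes changed, 41.3% being lower and 24.7% higher; the same wild type libraries served both genotype comparisons. Hnf4g averaged 4.57 ± 1.59 FPKM in MR knock out and 7.73 ± 2.41 in wild type (log2 -0.70 ± 0.15, adjusted p = 0.000126). Nr5a2 averaged 5.54 ± 2.05 FPKM in MR knock out and 9.80 ± 2.59 in wild type (log2 -0.80 ± 0.15, adjusted p = 2.36e-05).

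Ppara was lower as well, at -0.39 ± 0.14 (adjusted p = 0.0136). With the length score as a covariate Hnf4g was -0.13, Nr5a2 -0.19 and Ppara 0.07, and only the Nr5a2 call of these 3 remained. Rxra rose, with 16.3, 19.0 and 23.9 FPKM (lowest, median, highest) in MR knock out against 13.9, 16.8 and 22.2 in wild type (log2 0.18 ± 0.04, adjusted p = 0.000472). It was higher at 6 of 6 times. Vdr and Hnf4a did not pass the test, with 95% intervals of -0.16 to 0.08 and -0.11 to 0.13.

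Genes known to depend on these receptors were counted from lists, beside the same background of 31.1% higher and 49.2% lower among all tested genes in Bmal1 knock out, and 24.7% and 41.3% in MR knock out. The lists do not mark whether a receptor raises or lowers a gene, so the counts do not measure receptor activity. Of 18 measured PPAR targets, 2 were higher and 11 lower in Bmal1 knock out, among them Cpt1a, the carnitine shuttle step of fatty acid oxidation, at 25.6 FPKM in Bmal1 knock out and 59.2 in wild type (log2 -1.37 ± 0.14). Vnn1, a pantetheinase, differed by -1.47 ± 0.13. The median over the list was -0.35, against -0.13 over all tested genes. In MR knock out 4 of the 18 were higher and 7 lower; Fabp2, the intestinal fatty acid binding protein, averaged 878 FPKM in MR knock out and 292 in wild type.

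Of 4 measured FXR targets, 3 were higher and 1 lower in Bmal1 knock out. Slc51b and Slc51a, the subunits of the basolateral bile acid exporter, averaged 60.5 and 34.1 FPKM in Bmal1 knock out, against 29.5 and 24.5 in wild type (log2 1.06 ± 0.12 and 0.48 ± 0.20). Slc10a2, the apical bile acid importer, was the lower gene (log2 -0.91 ± 0.27).

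Of 7 measured PXR targets, 6 were lower and 0 higher in Bmal1 knock out, although Nr1i2 itself was not called. Abcb1a, a drug efflux pump, averaged 27.7 FPKM in Bmal1 knock out and 100 in wild type (log2 -2.12 ± 0.15), and Por, the electron donor of cytochromes P450, 22.3 in Bmal1 knock out and 48.4 in wild type (log2 -1.13 ± 0.07). In MR knock out 1 of the 7 was higher and 2 were lower.

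Of 6 measured VDR targets, 4 were lower and 0 higher in each knock out. S100g, also in the list, had a higher mean in Bmal1 knock out but was not called higher. It averaged 316 ± 197 FPKM there, 108 ± 93.4 in MR knock out and 168 ± 71.4 in wild type (SD). Cldn2, a cation-permeable claudin, averaged 27.0 FPKM in Bmal1 knock out colons, 28.5 in MR knock out colons and 58.8 in wild type, although Vdr itself was not called in MR knock out. Of 11 measured HNF4 targets, 3 were higher and 7 lower in Bmal1 knock out, and 5 were higher and 0 lower in MR knock out. Espn, an actin bundler of microvilli, was 43.5 FPKM in MR knock out and 26.2 in wild type, and Cdhr2, a brush border protocadherin, was 74.0 in Bmal1 knock out and 123 in wild type.

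Coregulators were mostly lower in the knock outs, in a fit without the length score, which differed between the genotypes. Of 12 coregulators, 11 were lower in Bmal1 knock out and 12 in MR knock out, with medians of -0.67 and -0.44; Ppargc1a, the PPAR coactivator PGC-1α, averaged 2.77 FPKM in Bmal1 knock out colons, 3.13 in MR knock out colons and 5.46 in wild type. Of 10 measured partner receptors, 6 were lower in each knock out, beside 49.2% of all tested genes in Bmal1 knock out and 41.3% in MR knock out, and 1 was higher in Bmal1 knock out. Of 4 LRH-1 targets, 2 were higher in each knock out, 2 lower in Bmal1 knock out and 1 lower in MR knock out. Of 11 gut transcription factors, 3 were higher and 6 lower in Bmal1 knock out (31.1% and 49.2% of all tested genes) and 2 higher and 6 lower in MR knock out (24.7% and 41.3%); Cdx2 was higher in each knock out, at 129 and 130 FPKM against 83.1 in wild type.

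Some markers of colon epithelium, of other cell types and of position along the gut moved with these comparisons. The summed level of the distal colon list, of which 3 Hox genes were tested, ran from 57.4 to 119 FPKM in Bmal1 knock out colons, 28.8 to 158 in MR knock out colons and 114 to 197 in wild type. All 3 (Hoxa13, Hoxb13, Hoxd13) were lower in each knock out. The fibroblast gene Dcn was 0.77 higher (log2) in MR knock out, at 1.79 ± 2.51 FPKM against 0.405 ± 0.214 in wild type (SD). The smooth muscle gene Tagln was lower in each, by log2 values of -0.72 in Bmal1 knock out and -0.40 in MR knock out. Each was the only tested marker of its list. Of the smooth muscle markers under the filter, Acta2, Des, Actg2 and Cnn1 had higher means in each knock out than in wild type, and Myh11 lower ones. Of the colon epithelium markers, Epcam, Cdh1, Vil1, Car1 and Slc26a3 had lower means in Bmal1 knock out than in wild type. Krt8, Krt18, Krt19 and Krt20 had higher ones. Slc26a3 averaged 59.9 FPKM in Bmal1 knock out and 217 in wild type, and Krt18 785 and 302. The small intestine marker Alpi averaged 18.8 FPKM in MR knock out and 5.1 in wild type. Fabp6 averaged 31 and 23.1 FPKM and Slc5a1 26.5 and 33.8 in the same order. The part of sampling position, cell mixture and length score in the receptor differences was not tested beyond the covariate values given. For the lists of targets, coregulators and other genes no covariate values are given, and this part was not tested.

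Few receptors had a detectable 24 h rhythm in wild type colons of the genotype experiment. A rhythm was called by an F test on a 24 h cosine, and its amplitude is the log2 distance from mean to peak. Only Rxra was called in wild type (17.7% of all tested genes were), with an amplitude of 0.17 ± 0.04 and a peak at ZT11.1. Its 3 wild type libraries had 22.2, 20.2 and 20.5 FPKM at ZT12 and 13.9, 15.8 and 16.1 at ZT20, which did not overlap. The call was lost without replicate 1 (adjusted p = 0.297), without replicate 2 (adjusted p = 0.167) and on FPKM as deposited (adjusted p = 0.964). In MR knock out, Vdr was the gene called (21.7% of all tested), with an amplitude of 0.24 ± 0.06 and a peak at ZT13.9, a call lost without the MR knock out ZT12 replicate 3 library.

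In Bmal1 knock out, 5 of the 9 were called rhythmic, where 56.7% of all tested genes were. Pparg had the widest swing among the commoner receptors, with 45.2, 49.2 and 43.2 FPKM at ZT4 and 21.0, 17.6 and 17.3 at ZT16 in Bmal1 knock out; wild type libraries had 34.3, 33.5 and 36.2 at ZT4 and 23.3, 29.5 and 34.0 at ZT16. Its amplitude was 0.56 ± 0.09 in Bmal1 knock out and 0.17 ± 0.09 in wild type, and the difference of the rhythms was called (0.42 ± 0.13, adjusted p = 0.0338).

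The rhythm also differed for Vdr (0.31 ± 0.09, adjusted p = 0.0186) and Nr1i2 (0.28 ± 0.08, adjusted p = 0.0202), making 3 of 9 where 31.2% of all tested genes differed. Nr1i2 was itself called rhythmic in neither genotype, and Pparg and Vdr were called in Bmal1 knock out but not in wild type. Nr1h4, Vdr, Hnf4a and Hnf4g were the other genes called rhythmic in Bmal1 knock out, with peaks at ZT6.86, ZT4.18, ZT4.45 and ZT6.08. All 6 libraries at ZT12 and ZT16 of that genotype were among those with low scale factors, and without the low-scale libraries 0 of the 9 were rhythmic and 0 had a rhythm difference. Low scale and time cannot be told apart there. No rhythm difference between MR knock out and wild type was called among the 9 by limma (0.835% of all tested), and 1 had an unadjusted p under 0.05.

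**Figure D3:**
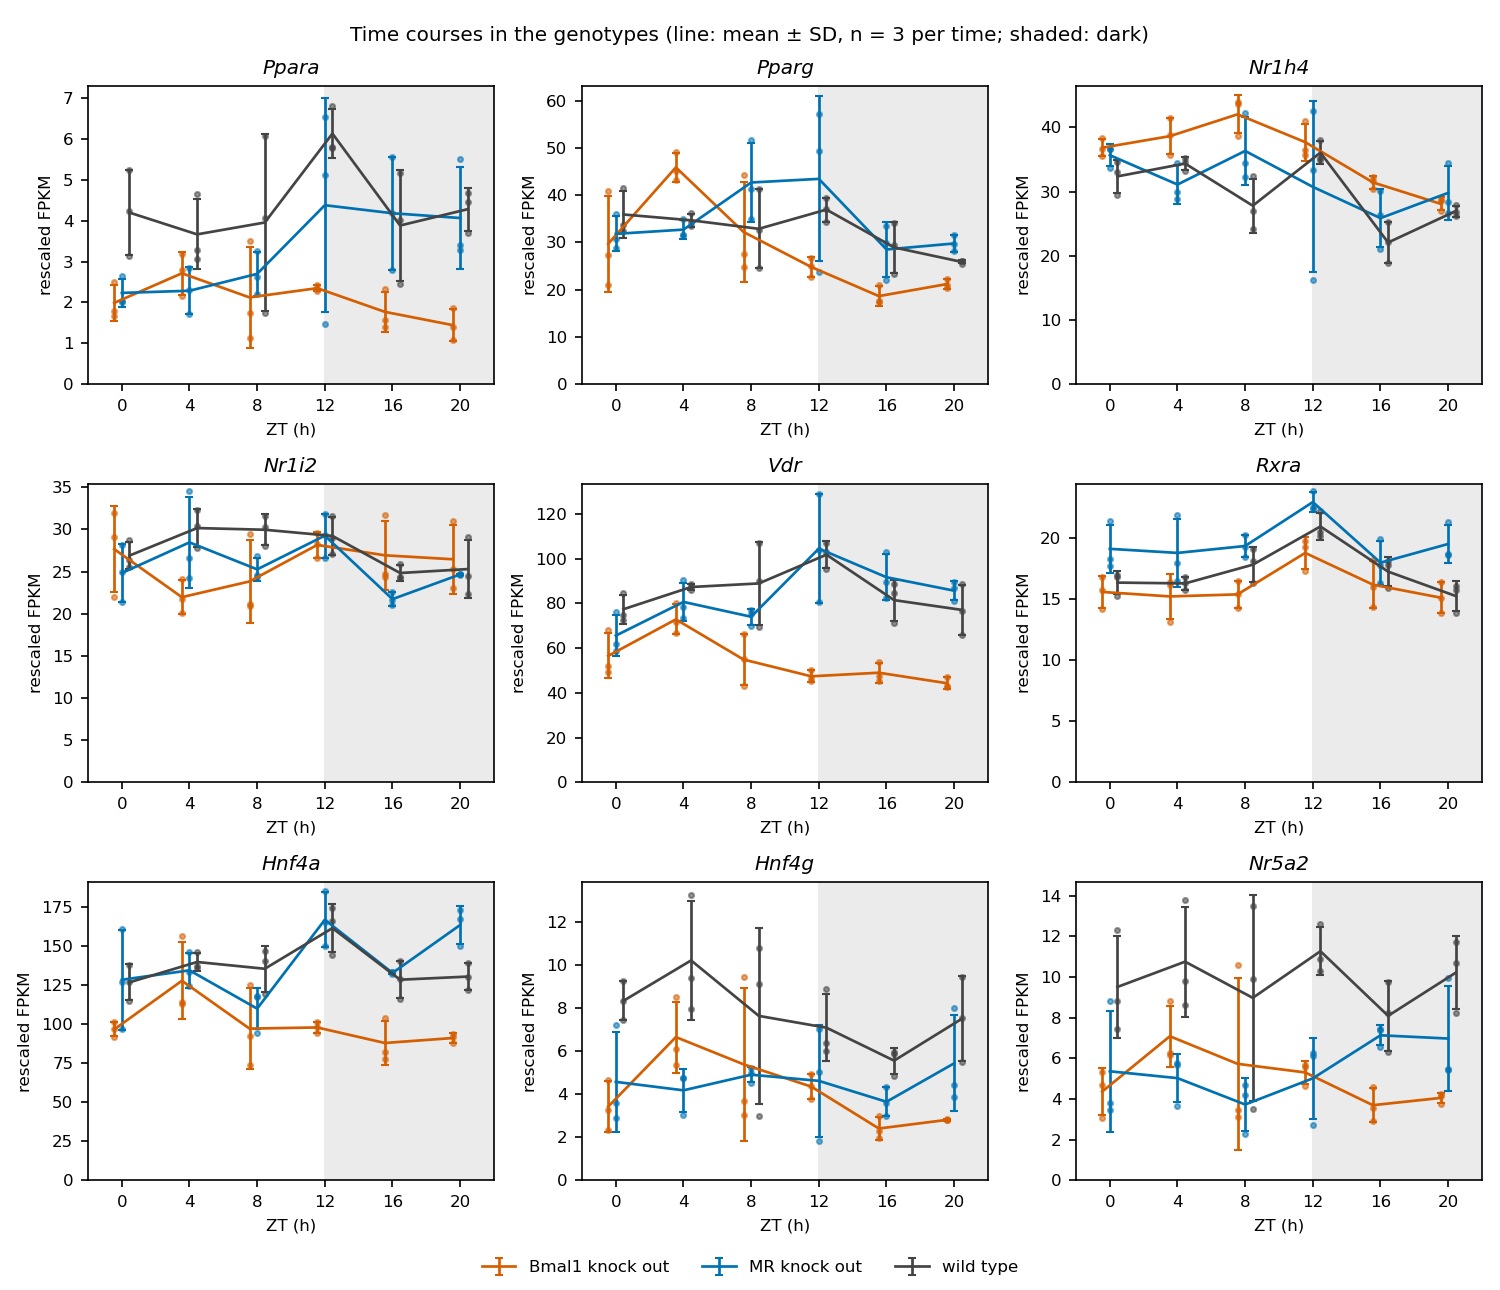
Rescaled FPKM of the 9 receptor genes over 6 zeitgeber times in Bmal1 knock out, MR knock out and wild type colons; points are libraries, set slightly apart around each time, lines join the means of 3, bars are SD, and shading marks the dark phase. Vdr runs lower in Bmal1 knock out at all 6 times, and Pparg in Bmal1 knock out is highest at ZT4.

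The feeding experiment asked whether the time of meals moves these rhythms. In low salt, the rhythms of 7 of the 9 genes differed between day fed and night fed mice, where 38.6% of all tested genes differed. Ppara, the fatty acid receptor, was the clearest case. At ZT4 day fed libraries had 3.46, 4.38 and 3.43 FPKM, against 2.23, 1.75 and 1.39 in night fed libraries. At ZT20 day fed libraries had 1.80, 2.13 and 1.59, against 4.16, 4.45 and 3.49 in night fed libraries. The order of the feeding groups was thus turned round between these times with no overlap at either.

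The Ppara peak stood at ZT4.12 ± 1.01 h in day fed and ZT15.8 ± 0.919 h in night fed mice (SE), 11.7 h apart, with amplitudes of 0.36 ± 0.09 and 0.39 ± 0.09. The rhythms differed (0.75 ± 0.13, adjusted p = 0.000145). After the day fed times were moved by 12 h, the difference was 0.05 (adjusted p = 0.955). In high salt the Ppara rhythms differed by 0.70 ± 0.13 between day fed and night fed mice (adjusted p = 0.000295), with peaks at ZT4.83 and ZT19.1. Without high salt day fed ZT0 and ZT12 it was 0.70 as well. Each of these 2 calls was kept under every alternative tried, with a lowest value of 0.44. With the length score as a covariate, the Ppara amplitude in low salt was 0.08 in day fed mice (F test, adjusted p = 0.669). In night fed mice it was 0.38 (adjusted p = 3.38e-05). The kept low salt difference was then between a called and an uncalled rhythm, not between 2 called rhythms with opposite peaks.

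Nr1h4, the bile acid receptor, did not peak with Ppara in low salt. Its peak was ZT20.6 against ZT4.12 for Ppara in day fed mice, and ZT2.87 against ZT15.8 in night fed mice. In low salt night fed mice Nr1h4 had 49.2, 53.5 and 45.1 FPKM at ZT0 and 27.8, 22.9 and 27.1 at ZT16. In low salt day fed mice it had 30.4, 32.8 and 33.1 at ZT0 and 38.6, 34.1 and 27.2 at ZT16. At ZT0 every day fed library lay below every night fed library, while at ZT16 the day fed mean was higher and the ranges met, with 27.2 as the lowest day fed and 27.8 as the highest night fed value.

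Its amplitude was 0.18 ± 0.05 in low salt day fed and 0.40 ± 0.05 in low salt night fed mice, with peaks at ZT20.6 and ZT2.87. The rhythms differed (0.45 ± 0.07, adjusted p = 4.8e-05), and they still differed after the 12 h shift (0.43 ± 0.07, adjusted p = 0.00032). The peaks lay 6.23 h apart, and the parts of peak time and amplitude in these differences were not separated. The first of these was kept under every alternative. The correlation of Ppara and Nr1h4 over the 42 condition-by-time means was -0.38, given as a description.

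Hnf4g, Nr5a2, Vdr, Rxra and Hnf4a were rhythmic in low salt day fed mice with peaks between ZT3.04 and ZT5.46, near that of Ppara. With Ppara and Nr1h4 this made 7 of 9 rhythmic in that group, where 42.2% of all tested genes were, and 2 of 9 in low salt night fed mice, where 22.6% were. Nr5a2 had 6.85, 7.95 and 8.90 FPKM at ZT4 and 4.94, 4.42 and 4.26 at ZT12 in low salt day fed mice, and its amplitude was 0.52 ± 0.13. Hnf4g had 5.10, 5.92 and 5.44 at ZT4 and 1.69, 3.64 and 1.46 at ZT20, with an amplitude of 0.51 ± 0.15, not called without low salt day fed ZT16 replicate 2.

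With the length score as a covariate these amplitudes were 0.03 for Hnf4g, 0.03 for Nr5a2 and 0.08 for Ppara, and 2 of the 9 were rhythmic in low salt day fed mice. Vdr had 103, 83.9 and 88.7 FPKM at ZT0 and 60.7, 73.7 and 64.0 at ZT12 in low salt day fed mice, and 84.0, 66.2 and 81.0 at ZT0 and 100, 86.0 and 105 at ZT12 in low salt night fed mice. At ZT12 the feeding groups did not overlap. The rhythm difference of Vdr was 0.37 ± 0.08 (adjusted p = 0.00287), and those of Pparg, Rxra, Hnf4a and Nr5a2 were 0.31, 0.22, 0.23 and 0.64. Pparg was itself called rhythmic in neither low salt group, and the other genes named here were called in day fed mice only. After the 12 h shift, 2 of 9 still differed (Nr1h4 and Rxra), where 23.2% of all tested genes did.

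**Figure D4:**
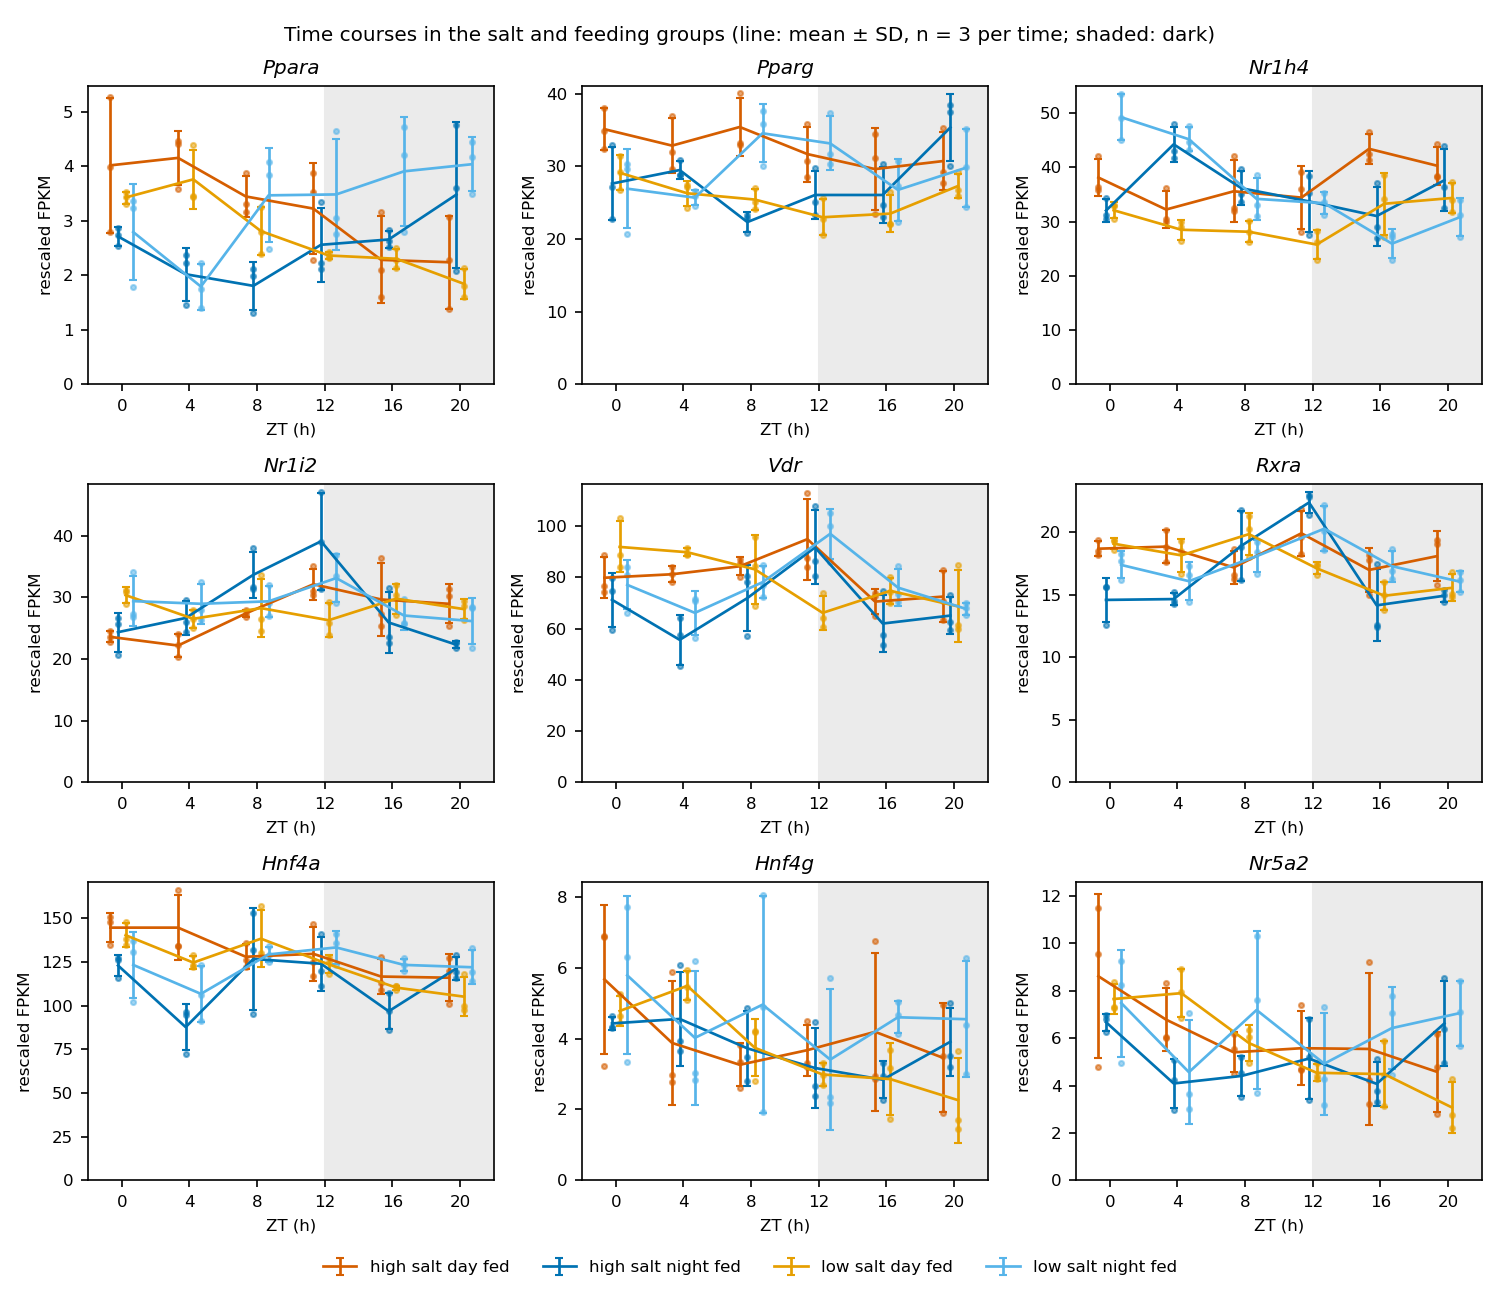
Rescaled FPKM of the 9 receptor genes over 6 zeitgeber times in the 4 feeding groups; points are libraries, set slightly apart around each time, lines join the means of 3, bars are SD, and shading marks the dark phase. Ppara is high at ZT4 in both day fed groups and at ZT20 in both night fed groups, and Nr1h4 in low salt night fed mice is highest at ZT0.

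In high salt, the rhythms of 5 of 9 genes differed between day fed and night fed mice (32.5% of all tested genes): Ppara, Pparg, Nr1h4, Nr1i2 and Rxra, and 5 also differed without high salt day fed ZT0 and ZT12. After the 12 h shift 3 differed, Nr1i2, Vdr and Rxra, where 57.2% of all tested genes did, and 1 without those times. Nr1i2, the xenobiotic receptor, was called rhythmic in both high salt groups and in neither low salt group, at an amplitude of 0.24 ± 0.05 and a peak at ZT14.3 in day fed and 0.36 ± 0.05 and ZT9.97 in night fed mice; the low salt amplitudes were 0.06 ± 0.05 in day fed and 0.10 ± 0.05 in night fed mice. In high salt night fed mice it had 31.3, 38.9 and 47.0 FPKM at ZT12 and 21.7, 22.5 and 22.7 at ZT20. Of the 3 libraries at ZT12, 2 were among those with low scale factors. The Nr1i2 call in day fed mice was lost without high salt day fed ZT0 and ZT12, and that in night fed mice without the low-scale libraries. In day fed mice the difference of its rhythms between salts was not called (0.26 ± 0.08, limma F test, adjusted p = 0.0533).

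High salt night fed mice had 6 of 9 receptors called rhythmic (57% of all tested genes) and high salt day fed mice 3 of 9 (31.6%), or 1 without ZT0 and ZT12, which was Ppara. Rxra in high salt night fed mice had 22.4 FPKM on average at ZT12 and 14.2 at ZT16, an amplitude of 0.27 ± 0.04 with a peak at ZT10.4, against 0.03 ± 0.04 in high salt day fed mice. Without the low-scale libraries 0 of the 9 were called in high salt night fed mice.

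Salt changed 3 rhythms in night fed mice (12.3% of all tested genes). The amplitude of Nr1h4 was 0.15 ± 0.05 in high salt and 0.40 ± 0.05 in low salt (difference 0.26 ± 0.07, adjusted p = 0.0427), and that of Nr1i2 was 0.36 ± 0.05 in high salt and 0.10 ± 0.05 in low salt (0.26 ± 0.08, adjusted p = 0.048). The Pparg peak was at ZT21.4 in high salt and ZT10.7 in low salt, where its own rhythm was not called (0.36 ± 0.08, adjusted p = 0.00916). These 3 calls were lost without the low-scale libraries. That fit used cosine and sine terms, with which not all of the 3 calls stood even with every library kept. In day fed mice 0 of 9 differed between salts by limma (11.3% of all tested genes did), 3 of them with an unadjusted p under 0.05.

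**Figure D5:**
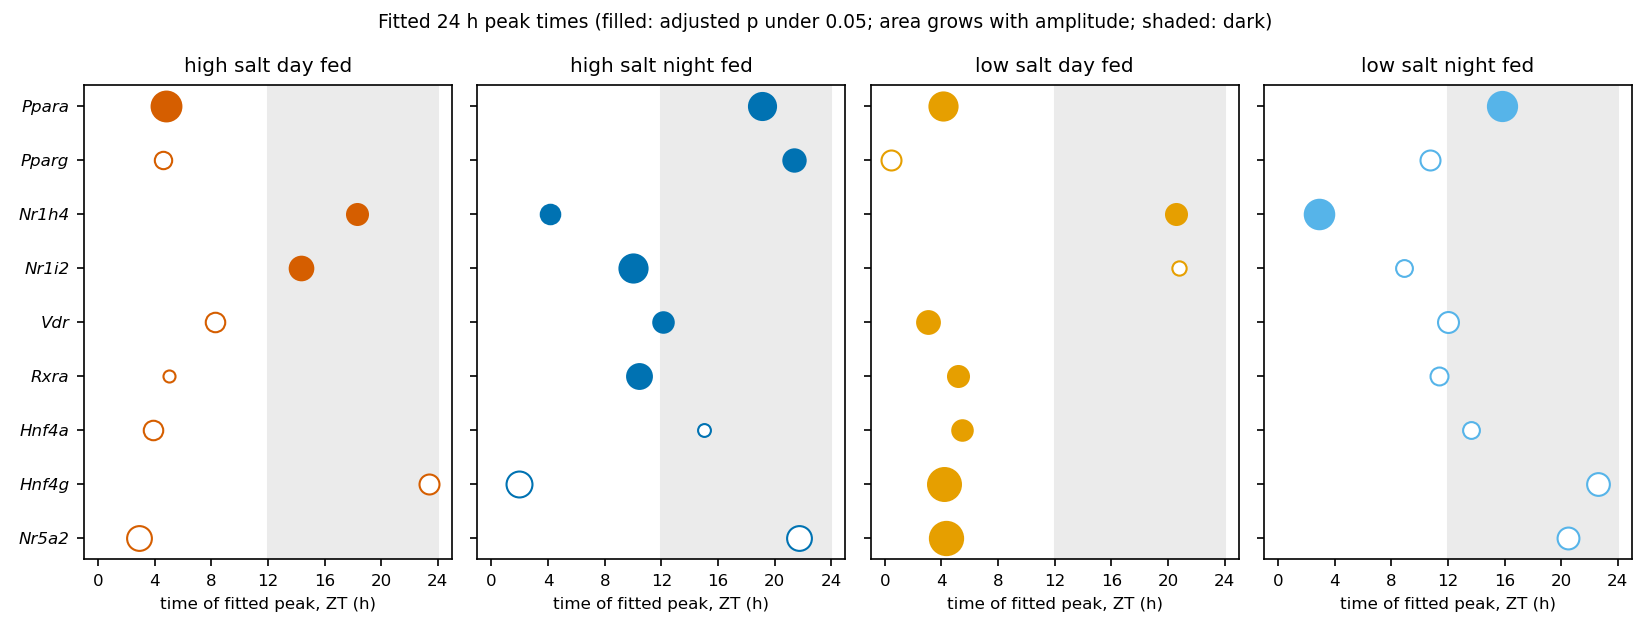
Fitted 24 h peak time of each receptor gene in each of the 4 feeding groups (ZT in hours on the horizontal axis, dark phase shaded), with point area growing with amplitude and filled points rhythmic at an adjusted p of 0.05. In low salt day fed mice the filled points of Vdr, Ppara, Hnf4g, Nr5a2, Rxra and Hnf4a lie between ZT3.04 and ZT5.46.

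Rhythms of the target lists were counted in the same groups. Of all tested genes, 31.6% were rhythmic in day fed and 57% in night fed mice on high salt, and 42.2% in day fed and 22.6% in night fed mice on low salt, so a count that follows this order is not particular to a list. Of the 18 PPAR targets, 7 were rhythmic in day fed and 12 in night fed mice on high salt, and 10 in day fed and 7 in night fed mice on low salt. Once high salt day fed ZT0 and ZT12 were left out, 2 PPAR and 1 PXR targets were rhythmic in that group, the last being Por, where 4.81% of all tested genes were. The mitochondrial thiolase Acaa2, named after its values were seen, peaked at ZT19.9 in low salt day fed and ZT11.6 in low salt night fed mice. Of the 7 PXR targets, 3 were rhythmic in low salt day fed and 7 in low salt night fed mice; Por, also chosen after its values were seen, peaked at ZT7.67 in day fed and ZT14.1 in night fed mice on high salt, and at ZT5.87 in day fed and ZT13.8 in night fed mice on low salt. Of the 12 coregulators, 11 were rhythmic in low salt day fed and 1 in low salt night fed mice. These list counts are from the fit without the length score. In single low salt day fed libraries that score ran from 0.154 at ZT4 to -0.234 at ZT20, and its part was not tested. Of the 11 HNF4 targets, 8 were rhythmic in low salt day fed and 2 in low salt night fed mice.

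Mean levels over the day were compared between diets and meal times; these comparisons share groups of libraries with each other. In day fed mice, 2 of the 9 receptors were higher in high salt than in low salt, where 14.8% of all tested genes changed, 7.79% being higher and 7.05% lower. Pparg had 23.4, 32.7 and 40.1 FPKM (lowest, median, highest) in high salt day fed mice, against 20.6, 26.2 and 31.5 in low salt day fed mice. It was 1.26-fold higher (log2 0.33 ± 0.06, adjusted p = 4.65e-05) and higher at 6 of 6 times, without overlap at 4.

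Nr1h4 had 28.0, 37.3 and 46.6 FPKM in high salt day fed mice, against 22.9, 30.1 and 38.6 in low salt day fed mice. It was 1.22-fold higher (log2 0.29 ± 0.05, adjusted p = 5.65e-05), at 6 of 6 times and without overlap at 4. Without high salt day fed ZT0 and ZT12 the differences were 0.31 for Pparg and 0.31 for Nr1h4, and both calls remained. On FPKM as deposited neither was called.

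Some targets of the bile acid and vitamin D receptors were higher in the same comparison, in which 7.79% of all tested genes were higher. Of 4 FXR targets, 2 were higher and 0 lower in high salt day fed than in low salt day fed mice: Slc51b averaged 73.4 FPKM in high salt and 52.6 in low salt (log2 0.47 ± 0.10), and Slc10a2 4.83 in high salt and 2.14 in low salt (log2 0.88 ± 0.21). The list does not mark whether FXR raises or lowers each gene. Of 6 VDR targets, 3 were higher and 0 lower, among them the zinc and manganese exporter Slc30a10 at 2.46 FPKM in high salt and 0.746 in low salt, while Vdr itself differed by 0.03 ± 0.06. Of 18 PPAR targets 3 were higher and 1 lower, of 7 PXR targets 2 were higher, and of 11 HNF4 targets 3 were higher. Without high salt day fed ZT0 and ZT12, where 5.21% of all tested genes were higher and 5.7% lower, 2 FXR, 2 VDR, 2 PPAR, 2 PXR and 1 HNF4 targets were higher and 0 lower; Slc51b was then 0.56, Slc10a2 0.94 and Slc30a10 1.15 higher (log2), all still called. The distal Hox genes Hoxb13 and Hoxd13 were lower in high salt day fed mice, and the summed level of the distal colon list ran from 55.3 to 171 FPKM in high salt and 130 to 275 in low salt. The part of sampling position in these differences was not tested.

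In night fed mice, 3 of the 9 receptors were lower in high salt than in low salt, where 35% of all tested genes changed, 19.6% being lower and 15.4% higher. Ppara averaged 2.54 ± 0.793 FPKM in high salt and 3.24 ± 1.04 in low salt (SD, n = 18 each; log2 -0.29 ± 0.09, adjusted p = 0.0164). Vdr differed by -0.16 ± 0.06 (adjusted p = 0.0326) and Hnf4a by -0.13 ± 0.05 (adjusted p = 0.0374). The ranges of the salt groups overlapped for each. The Vdr and Hnf4a calls were lost on leaving out any of 13 and 14 single libraries, and without the low-scale libraries only Hnf4a of the 9 was called, at -0.24. That fit used cosine and sine terms, with which fewer than 3 were called even with every library kept. All 3 distal Hox genes were lower in high salt night fed mice, with a list median of -0.43. Cpt1a, a PPAR target, averaged 33.6 FPKM in high salt and 44.8 in low salt (log2 -0.43 ± 0.10), and of the 11 HNF4 targets 5 were lower. Cpt1a does not stand for its list. The summed PPAR target level had a median of 1219 FPKM (896 to 1632) in high salt night fed libraries. In low salt night fed libraries it was 1128 FPKM (832 to 1421).

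Between day fed and night fed mice on low salt, Nr1h4 alone of the 9 differed in mean level, where 3.33% of all tested genes did and 2.29% were lower. It averaged 30.4 ± 4.10 FPKM in day fed and 36.5 ± 8.81 in night fed mice (SD, n = 18 each; log2 -0.23 ± 0.05, adjusted p = 0.00763). The difference was not of 1 sign over the day: day fed mice were lower at 4 of 6 times.

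On high salt, 5 of the 9 were higher in day fed than in night fed mice, where 27.6% of all tested genes changed and 14.7% were higher. They were Ppara (log2 0.28 ± 0.09), Pparg (0.23 ± 0.06), Vdr (0.23 ± 0.06), Rxra (0.16 ± 0.04) and Hnf4a (0.21 ± 0.05). Without high salt day fed ZT0 and ZT12 only Pparg was still called, at 0.21 (adjusted p = 0.0342). Without the low-scale libraries, all of them night fed in this comparison, Rxra (0.21) and Hnf4a (0.31) were still called and Ppara, Pparg and Vdr were not. The Ppara call was also lost without any of 4 libraries, high salt day fed ZT0, ZT16 or ZT20 replicate 3 or high salt night fed ZT20 replicate 1. Of 11 HNF4 targets, 5 were higher and 0 lower in day fed mice; Vil1, the microvillus protein villin, averaged 205 FPKM in day fed and 179 in night fed mice (log2 0.19 ± 0.04). Of 4 FXR targets, 2 were higher. These counts were, without high salt day fed ZT0 and ZT12, 3 HNF4 and 2 FXR targets, where 8.12% of all tested genes were higher. Of 9 colon epithelium markers, 4 were then higher and 1 lower (Cdh1, Epcam, Krt18, Krt20 and Vil1 together). Of 3 immune markers, 2 were higher. The part of cell mixture in these differences was not tested.

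The effect of salt depended on meal time for 5 of the 9 receptors, all with a positive interaction, where 19.7% of all tested genes had an interaction, 11% a positive and 8.75% a negative one. Pparg was the largest of those 5 relative to its error: high salt minus low salt was 0.33 ± 0.06 in day fed and -0.08 ± 0.06 in night fed mice (interaction 0.41 ± 0.08, adjusted p = 0.000277). Nr1h4 followed, at 0.29 ± 0.05 in day fed and 0.00 ± 0.05 in night fed mice (interaction 0.30 ± 0.07, adjusted p = 0.00423). Both were also called without high salt day fed ZT0 and ZT12, at 0.39 and 0.32, and the calls of Ppara, Rxra and Hnf4a were lost. Without the low-scale libraries Pparg, Nr1h4 and Hnf4a were called, at 0.35, 0.31 and 0.31. Both settings used cosine and sine terms, and with those terms and all libraries kept 3 of the 9 were called. The part of this change of model in the lost calls was not tested. Of 11 HNF4 targets 4 had a positive interaction, of 4 FXR targets 3, and of 18 PPAR targets 4 a positive and 1 a negative one. With high salt day fed ZT0 and ZT12 left out, the positive ones were 3 HNF4, 3 FXR and 3 PPAR targets, where 7.05% of all tested genes had one, and 0 were negative. Of 9 colon epithelium markers, 5 then had an interaction, 4 positive and 1 negative, and the same 5 were called with all libraries. They were Cdh1, Epcam, Krt18, Krt20 and Vil1, the last also an HNF4 target. Of 3 immune markers, 2 were positive, Cd3e and Ptprc. The part of cell mixture in these interactions was not tested.

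Profiles over the 42 condition-by-time means (log2) described which genes ran alongside each receptor, by Pearson's r; points share libraries' scale and length score, and no test is given. Among the receptors themselves the most alike were Vdr and Hnf4a (r = 0.87), Hnf4g and Nr5a2 (0.83) and Ppara and Nr5a2 (0.81). Over all tested genes, Ppara was most like Fchsd2 (0.905), Rbsn (0.903) and Ugt1a1 (0.900), the last a bilirubin glucuronosyltransferase. Nr5a2 was most like Dpp8 (0.957), Bmp2k (0.955) and Pdpk1 (0.953), and Hnf4g most like Zfp26 (0.928), AW549877 (0.927) and Pum2 (0.926).

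Vdr was most like Lnx1 (0.907), Eps8l3 (0.897) and the prostaglandin transporter Slco2a1 (0.895), and Hnf4a most like Elf4 (0.918), Luzp1 (0.918) and Foxo3 (0.909). Pparg was most like Abcc3 (0.830), Paqr8 (0.830) and Abca12 (0.825), and Rxra most like Myo18a (0.820), Plxnb2 (0.799) and the brush border adhesion gene Anks4b (0.791). Nr1i2 was most like Fbxo31 (0.841), Man2c1 (0.839) and Naprt (0.825). Nr1h4 had the loosest neighbours, Unc13d (0.757), Ak4 (0.743) and Socs3 (0.707).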

How the data were processed

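Mouse colons of 7 conditions were measured by stranded poly(A) RNA sequencing. The deposited values are per-gene FPKM that the authors made with TopHat2 2.1.1 and Cufflinks 2.2.1 on mm10, per the submitters' processing notes; the unit was read from the values and these tools. For annotation, filters and sequencing depth nothing is recorded there, and counting error was therefore not estimated.

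From these values, libraries were rescaled by median-of-ratios factors over 6966 genes across the 7 tables and tested as log2(rescaled FPKM + 0.5), which understates changes of low genes. Rows whose mean reached 1 rescaled FPKM in any condition were kept (11377 of 24883). limma 3.58.1 in R 4.3.3 (trend and robust) was fitted separately to the genotype experiment (54 libraries, 36 residual degrees of freedom) and the feeding experiment (72 libraries, 48), with a mean per condition and time. Levels were contrasted over the 6 times. Rhythms and their differences were F tests of 24 h cosine and sine contrasts, also after a 12 h shift of day fed times. Benjamini-Hochberg adjustment ran over all tested rows at a threshold of 0.05. Values after ± are SE unless SD is named. The procedure was tested on simulated data. The alternatives were other pseudocounts, filters and scalings, array weights, the replicate block, a length-score covariate, time as a factor, cosine terms, left-out libraries, and 3 settings added after the data were seen.

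The 9 genes and all lists were chosen with earlier results of these data known. Named genes were the 9, the targeted and clock genes, up to 3 genes per list and level comparison with the smallest adjusted p, and for each receptor the 3 tested genes with the highest correlation; some of these are not reported here. Single genes belong to several lists, among them Vil1, Nr0b2 and Fabp6. Gene lengths and positions came from GENCODE vM21 and promoter windows from RefSeq (GRCm38.p6).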

Additional observations from a re-analysis of the deposited data

Results flagged for a closer look

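Each receptor below had a salt effect that differed between day fed and night fed mice, by limma's test of the interaction (high salt minus low salt in day fed mice, minus the same in night fed mice, log2, averaged over 6 times with 3 libraries per group and time). The interaction was 0.46 ± 0.13 for Ppara (adjusted p = 0.0138). It was 0.41 ± 0.08 for Pparg (adjusted p = 0.000277). Nr1h4 had 0.30 ± 0.07 (adjusted p = 0.00423). Rxra had 0.17 ± 0.06 (adjusted p = 0.0432). Hnf4a had 0.20 ± 0.07 (adjusted p = 0.0404). The Rxra and Hnf4a calls were lost on leaving out any of 31 and 27 single libraries. Without high salt day fed ZT0 and ZT12 the values were 0.38, 0.39, 0.32, 0.13 and 0.16 in the same order, with Pparg and Nr1h4 called. That fit used cosine and sine terms, and with those terms and all libraries kept 3 receptors were called. The part of the clock gene mismatch at those times was not tested further.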

How the results depend on the processing

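Counts below are of the 9 receptors called, and the cause of each change was not tested. With a pseudocount of 0.1 all 198 results kept their direction and side of the threshold. The sources used here give no depth, and with 3 libraries per time small differences are not detectable. Ppara had the lowest levels of the 9, nearest to the filter.

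On FPKM as deposited, without rescaling, level calls were 9 for day fed minus night fed in high salt and 0 in low salt, 0 for high salt minus low salt in day fed and 9 in night fed mice, and 9 for the interaction. Rhythmic were 9 in Bmal1 and 0 in MR knock out, 0 in wild type, 1 in low salt day fed and 1 in low salt night fed mice. Rhythm differences were 9 for Bmal1 knock out, 8 and 2 for day fed minus night fed in high and low salt, 8 for salt in night fed mice, and 9 and 0 after the 12 h shift in high and low salt. Results that changed sign or turned in phase there were the level of Nr1h4 in Bmal1 knock out (-0.62), the day fed minus night fed level (0.40) and interaction (0.42) of Nr1i2, rhythms in Bmal1 knock out of Nr1i2 (0.72) and Rxra (0.76), and their rhythm differences from wild type (0.59 and 0.79). In high salt night fed mice they were the rhythms of Nr1i2 (0.30), Vdr (0.53), Rxra (0.38) and Hnf4a (0.66). They were also the rhythm differences by salt in night fed mice of Nr1h4 (0.56), Nr1i2 (0.40) and Rxra (0.49), by meal time in high salt of Nr1h4 (0.51), Nr1i2 (0.35) and Rxra (0.41), and after the shift of Nr1i2 (0.26), Vdr (0.49) and Rxra (0.48).

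With array weights the level counts were 5 for meal time in low salt, 4 and 7 for salt in day and night fed mice and 8 for the interaction. Rhythmic were 8 in MR knock out, 8 in wild type, 8 in high salt day fed and 7 in low salt night fed mice. Rhythm differences were 6 for Bmal1 knock out, 7 for MR knock out, 7 and 5 for salt in day and night fed mice, and 8 and 6 after the shift in high and low salt. The Hnf4g rhythm in MR knock out turned in phase, at 0.28. With quantile scaling the Hnf4a level in MR knock out was -0.20, 2 were rhythmic in MR knock out and 1 differed by salt in day fed mice.

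With the length score as a covariate, 4 levels were called in Bmal1 knock out, 3 for meal time in low salt, 0 for salt in night fed mice and 3 for the interaction. Rhythmic were 5 in MR knock out, 5 in wild type, 2 in low salt day fed and 5 in low salt night fed mice. Rhythm differences were 1 for Bmal1 knock out, 3 for salt in day fed mice and 5 after the shift in high salt. Levels that changed sign were Pparg (0.08), Hnf4g (0.08) and Nr5a2 (0.08) in Bmal1 knock out, Ppara (0.07) in MR knock out and Hnf4g (-0.22) for meal time in high salt. The Hnf4g rhythms in low salt day fed (0.03) and high salt day fed mice (0.30) and the shifted differences in high salt of Hnf4g (0.31) and Nr5a2 (0.27) turned in phase. With that covariate and without low-scale libraries, the counts were 1 for the level in Bmal1 knock out, 3 for meal time in high salt and 3 for the interaction. Rhythmic were then 0 in Bmal1 and 4 in MR knock out, 3 in wild type, 2 in night fed mice on high salt, and 0 in day fed and 4 in night fed mice on low salt. Rhythm differences were 0 for Bmal1 knock out, 4 for meal time in low salt, 2 and 0 for salt in day and night fed mice and 0 after the shift in high salt. Pparg was 0.07, Hnf4g 0.19 and Nr5a2 0.24 in Bmal1 knock out, Ppara 0.08 in MR knock out and Hnf4g -0.24 for meal time in high salt. The rhythms of Hnf4g (0.01) and Nr5a2 (0.01) in low salt day fed and Hnf4g (0.28) in high salt day fed mice turned in phase.

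Without low-scale libraries, levels were 5 in Bmal1 knock out, 2 for meal time in high salt, 1 for salt in night fed mice and 3 for the interaction. Rhythmic were 0 in Bmal1 knock out and 0 in high salt night fed mice. Rhythm differences were 0 for Bmal1 knock out, 3 for meal time in high salt, 1 and 0 for salt in day and night fed mice and 1 each after the shift. With cosine terms and all libraries, 1 level was called for salt in night fed mice, 3 for the interaction, 2 rhythms in MR knock out, 1 difference by salt in night fed mice and 1 after the shift in low salt. Without high salt day fed ZT0 and ZT12 these were 1 for meal time in high salt, 1 for salt in night fed mice, 2 for the interaction, 1 rhythm in high salt day fed mice, 1 difference by salt in night fed mice and 1 each after the shift.

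With time as a factor, rhythms were 2 in MR knock out and 2 in wild type, and differences 0 for Bmal1 knock out and 4 for meal time in low salt. With the compared libraries alone, 1 level was called for salt in night fed mice, rhythms were 0 in MR knock out, 3 in wild type and 1 in high salt day fed mice, and salt differences 1 in day and 1 in night fed mice. With a pseudocount of 1, 2 were rhythmic in MR knock out. With no filter, the interaction was called for 3 and the salt difference in night fed mice for 1. With the filter at a mean of 5, Ppara was not tested and 1 was rhythmic in low salt night fed mice. With the replicate block, 2 were rhythmic in MR knock out; same-numbered libraries had a median correlation of -0.07 (29 of 108 pairs above 0.1), so the numbers do not pair libraries. Compared alone, no interaction could be fitted, and time as a factor gave no 12 h shift.

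Leaving out a single library or a replicate number gave level counts of 6 to 9 in Bmal1 knock out, 3 to 5 in MR knock out, 0 to 5 and 0 to 2 for meal time in high and low salt, 2 for salt in day fed and 0 to 4 in night fed mice, and 1 to 6 for the interaction. Rhythm counts ran from 1 to 6 in Bmal1 knock out, 0 to 4 in MR knock out, 0 to 2 in wild type, 0 to 5 and 2 to 6 in day and night fed mice on high salt, and 1 to 7 and 1 to 2 on low salt. Rhythm difference counts ran from 0 to 3 for Bmal1 knock out, 2 to 6 and 2 to 8 for meal time in high and low salt, 0 to 1 and 0 to 3 for salt in day and night fed mice, and 2 to 4 and 0 to 3 after the shift in high and low salt. For MR knock out the count was 0 throughout.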
